A study of Homo sapiens with 9 samples.

Results

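The most abundant transcripts of the nuclear genome in control cells were taken as the intervals on chromosomes 1 to 22 with a mean of at least 300 TPM over the 3 libraries with the control hairpin. The deposited tables had 57773 rows of hg19 intervals, of which 55527 intervals were listed once, and 460 of these met the rule. Another 2 intervals, chr11:14515329-14541890 and chr5:61808070-61808309, reached the level in 1 of the rows that share them, at 321 and 542 TPM in shScr, and were left out because the rows cannot be told apart. Tests covered the 15011 intervals that reached 1 TPM in 3 or more libraries, and all 460 were among them, 3.06% of what was tested. Total RNA was sequenced, not RNA of isolated nuclei, so "nuclear" here means coded outside the mitochondrial genome. TPM is the number of reads per unit of transcript length, scaled so that its sum is the same in each library. A share of the total is therefore all that it measures, and fewer transcripts per cell cannot be told apart from more of everything else.

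The libraries came from MDA-MB-231, an established human triple-negative breast cancer line, infected with a lentivirus that carried a short hairpin RNA and then selected with puromycin. The 3 groups were shCTDP1-#2 and shCTDP1-#1, which are different hairpins against CTDP1, and the scrambled control shScr, with 3 libraries each. Infection, packaging in 293FT cells and selection were common to all groups, so the control cells also received a hairpin vector. No label tells whether replicate libraries stem from separate cultures, so the p-values reflect library-to-library spread alone, and that spread may be technical. The level of CTDP1 itself was not analysed here.

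CTDP1 codes for FCP1, an enzyme that dephosphorylates the tail of the largest RNA polymerase II subunit and so returns the polymerase to a form that can start transcription again. The transcripts that dominate a growing cell are those of the ribosome, of translation factors, of glycolysis, of the cytoskeleton and of protein folding. Many of the mRNAs for ribosomal proteins and translation factors begin with a C followed by a run of C and T bases, the 5′ terminal oligopyrimidine (TOP) tract, through which mTOR signalling controls their translation.

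The start windows of abundant members are shown because the ribosomal protein genes were the largest class with a common function among the 460, and the tract at the start is the sequence feature that sets many of them apart. Each window runs from 20 bases before the RefSeq start to 10 bases from it on, read on the gene's own strand, with GRCh38.p14 positions. Capitals mark the tract from the annotated start, up to the end of the window. Where a gene has several RefSeq starts, the first with such a tract is shown, or the first listed if none has it. The first 6 genes have such a tract and the other 6 do not.
EEF1A1, chr6:73521023-73521052, minus strand: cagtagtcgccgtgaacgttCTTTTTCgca
NPM1, chr5:171387829-171387858, plus strand: aagcgcggggagcctgcgtcCTTTCCCTgg
RPLP0, chr12:120201102-120201131, minus strand: ggcacgcgcgggcgcgaggcCCTTCTCTCg
RPS12, chr6:132814549-132814578, plus strand: ggcatgcgtgcggatgaggcCTCTTTCCCT
RPL41, chr12:56116613-56116642, plus strand: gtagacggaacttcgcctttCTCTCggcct
EEF2, chr19:3985454-3985483, minus strand: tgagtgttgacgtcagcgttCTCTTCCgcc
VIM, chr10:17228221-17228250, plus strand: tcccggtgcaatcgtgatctgggaggccca
FTL, chr19:48965289-48965318, plus strand: cgccctagccacgtcccctcgcagttcggc
GAPDH, chr12:6535244-6535273, plus strand: tgcgcagcgggtgcatccctgtccggatgc
S100A6, chr1:153535982-153536011, minus strand: gtcggactgcgacacagcccatcccctcga
MT2A, chr16:56608564-56608593, plus strand: tgcttgccgcgctgcactccaccacgcctc
PPIA, chr7:44796661-44796690, plus strand: cgggaggccaggctcgtgccgttttgcaga

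The files name no genes. A symbol was given to 350 of the 460 intervals and the other 110 are described by hg19 position alone. RefSeq start windows were found for 280 of the 350. A TOP-type start was defined as a C at an annotated start followed by at least 4 bases that are each C or T, on the strand of the gene, at any of the gene's RefSeq starts. It was present in 28 of 37 ribosomal protein members with a window, which is 75.7%, and in 6 of 14 translation factor members, which is 42.9%. Of the 229 remaining members with a window 15.7% had it, against 5.14% of all 27305 genes with a window. A match is a description of letters at an annotated start, not of the start used in these cells.

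The markers of the line that were looked up gave no value against its label. Among the members, VIM (vimentin, an intermediate filament of mesenchymal cells), LGALS1 (galectin-1) and CD44 (a hyaluronan receptor) exceeded 700 TPM in every library. S100A4, another mesenchymal marker, lay below the threshold at 131 to 191 TPM over the 9 libraries. The oestrogen receptor gene ESR1 reached at most 0.13 TPM and the epithelial cadherin gene CDH1 at most 1.08 TPM. EPCAM, an epithelial adhesion molecule, lay between 6.16 and 12.9 TPM over the 9 libraries. shScr replicate 1 stood apart in its mitochondrial share, 4.47% of all TPM, against 1.12% in shScr replicate 2 and 1.66% in shScr replicate 3. The mitochondrial shares of the knockdown libraries lay between 1.64% and 2.28%.

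The 460 intervals took a lower share of all TPM with shCTDP1-#2 than with shCTDP1-#1. Their summed TPM was 37.7%, 38.8% and 38.3% of the total in shCTDP1-#2 libraries, 40.5%, 40.3% and 39.4% in shCTDP1-#1 libraries, and 40.8%, 43.1% and 43.2% in shScr libraries. The 3 groups did not overlap, and shScr replicate 1, with its high mitochondrial share, was the lowest of the shScr libraries. Between the hairpins the mean share was 38.3% ± 0.51 with shCTDP1-#2 and 40.1% ± 0.54 with shCTDP1-#1 (SD, n = 3 each), a difference of -1.78 percentage points. An exact permutation test, two-sided, returned p = 0.1, the smallest that 3 against 3 libraries allow. The mean in shScr, 42.4% ± 1.33, is the value that the rule raised: intervals chosen for a high level in shScr include some that were high there by chance, so selection on the control level favours apparent falls in the other groups. Intervals chosen by the same level on the 6 knockdown libraries took 39.95% with shCTDP1-#2, 41.71% with shCTDP1-#1 and 41.8% with shScr, so the gap between shCTDP1-#1 and shScr depends on which libraries choose. Comparisons with shScr are therefore given as a description, with no p-value.

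Members were short and less variable than the rest. Their median span in the genome was 11462 bases, against 27176 for the other tested intervals. The median coefficient of variation between libraries of a group was 3.21% in shCTDP1-#2, 2.58% in shCTDP1-#1 and 3.60% in shScr, against 7.75%, 7.72% and 7.89% for the other tested intervals in the same groups. A smaller spread makes a given difference easier to call, and every count of calls among the members is to be read with that in mind. Chromosomes 1 and 19 held the most members, 55 and 54, and chromosome 20 the largest share, 6.05% of its tested intervals. On chromosome 16 the share was 1.36%.

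**Figure D1:**
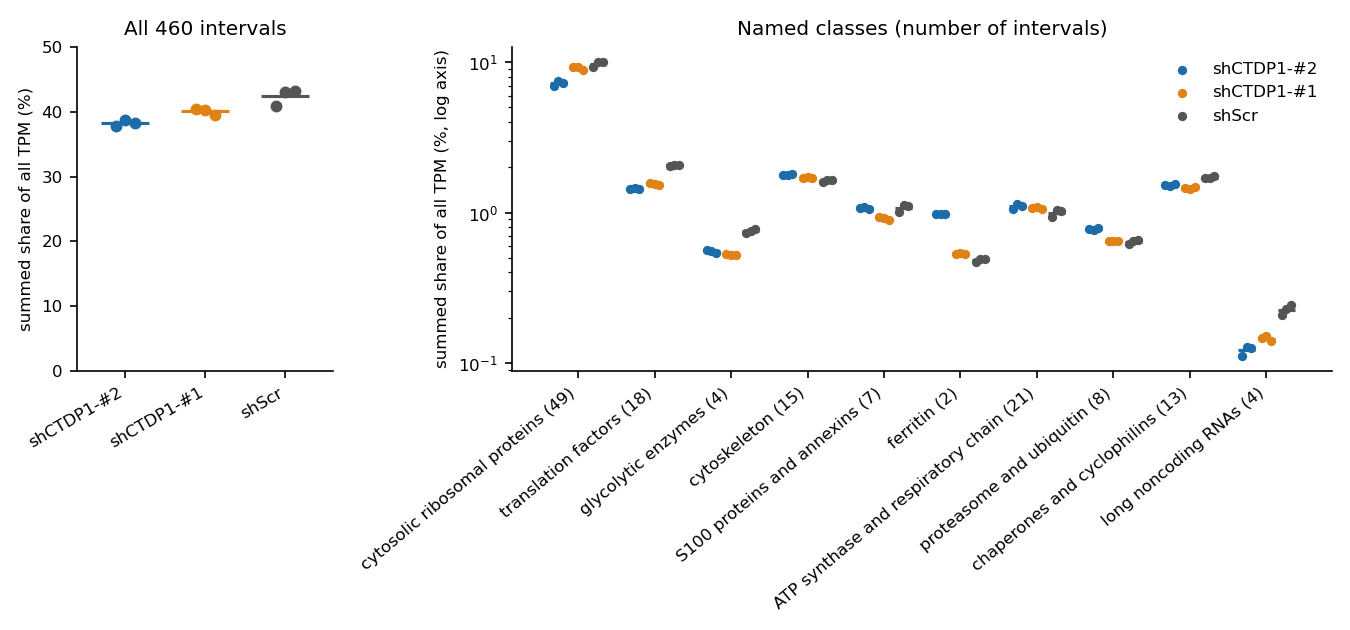
Summed share of all TPM for the 460 intervals (left, in percent) and for the named classes (right, percent on a log axis), with 1 point per library and a bar at the group mean. The ribosomal protein members took 7.24% of the total on average with shCTDP1-#2, 9.15% with shCTDP1-#1 and 9.79% with shScr, and the ferritin genes 0.972%, 0.530% and 0.486%.

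The 10 intervals with the highest level in shScr summed to 3.34% ± 0.07 of all TPM with shCTDP1-#2, 3.73% ± 0.11 with shCTDP1-#1 and 4.90% ± 0.18 with shScr (SD, n = 3 each). EEF1A1, which brings aminoacyl-tRNA to the ribosome, led with 4757, 4987 and 4774 TPM in shCTDP1-#2, 6246, 6130.5 and 5881 TPM in shCTDP1-#1, and 10035, 10165 and 10113 TPM in shScr. The groups stood in 3 separate steps, and between the hairpins EEF1A1 was lower with shCTDP1-#2 by 0.33 on the log2(TPM + 1) scale (-0.33, SE 0.03, limma adjusted p = 8.83e-06). NPM1, a nucleolar protein of ribosome assembly, had 2430.3, 2508 and 2299.8 TPM in shCTDP1-#2, 2250.3, 2196 and 2085 TPM in shCTDP1-#1, and 5087, 5020.4 and 4958 TPM in shScr. Both hairpin groups lay far below shScr and near each other, and NPM1 was higher with shCTDP1-#2 than with shCTDP1-#1 by 0.15 (SE 0.04, limma adjusted p = 0.00838).

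PPIA lay at similar levels in all groups, and S100A6 was low with shCTDP1-#1 alone. S100A6, a calcium-binding protein, had 4037, 4222 and 4033 TPM in shCTDP1-#2, 3084, 2834 and 2689 TPM in shCTDP1-#1, and 4022, 5092 and 4745 TPM in shScr. Its shCTDP1-#2 and shScr libraries overlapped, and it was higher with shCTDP1-#2 than with shCTDP1-#1 by 0.52 (SE 0.08, limma adjusted p = 0.000311). PPIA, the prolyl isomerase cyclophilin A, lay between 4189.7 and 4916 TPM in all 9 libraries and was higher with shCTDP1-#2 than with shCTDP1-#1 by 0.18 (SE 0.03, limma adjusted p = 0.00127).

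RPLP0, of the ribosomal stalk, had 2432, 2597 and 2526 TPM in shCTDP1-#2, 2758, 2712 and 2648 TPM in shCTDP1-#1, and 4064, 4406 and 4394 TPM in shScr. RPL8, of the large subunit, had 2409, 2466 and 2413 TPM in shCTDP1-#2, 2748, 2716 and 2667 TPM in shCTDP1-#1, and 3619, 3980.2 and 3803 TPM in shScr. For both genes every shCTDP1-#2 library was below every shCTDP1-#1 library, by 0.10 for RPLP0 (-0.10, SE 0.04, limma adjusted p = 0.0436) and by 0.16 for RPL8 (-0.16, SE 0.03, limma adjusted p = 0.00341). GAPDH, a glycolytic enzyme often used as a reference in expression work, averaged 2891 ± 88.5 TPM with shCTDP1-#2, 2885 ± 16.7 TPM with shCTDP1-#1 and 4258 ± 134 TPM with shScr (SD, n = 3 each). Between the hairpins its difference was 0.00 (SE 0.03, limma adjusted p = 0.957).

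The other 3 of the 10 carried no symbol. The interval chr7:5566782-5603415 averaged 2399 TPM with shCTDP1-#2, 2978 TPM with shCTDP1-#1 and 4413 TPM with shScr, a stepwise order like that of EEF1A1. The interval chr10:79793518-79816570 had means of 3749, 5132 and 4127 TPM in the same order of groups, and chr14:50043390-50065408 had 3276, 5478 and 3825 TPM. In these last 2 intervals the shCTDP1-#1 libraries were the highest of the 3 groups, so a high level in control cells did not go with the same order of groups in every member.

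shCTDP1-#2 against shCTDP1-#1 is the comparison that the rule did not use, since neither group entered the choice of members. Of the 460 intervals, 164 were higher and 192 lower with shCTDP1-#2 (limma, adjusted p under 0.05 over all 15011 tested intervals). Of the members 35.7% were higher, where 30.2% of all tested intervals were, and 41.7% were lower, where 20% of all tested intervals were. Counted by libraries that do not overlap, 177 members (38.5%) were higher and 208 (45.2%) lower, where 34.6% and 23.4% of all tested intervals were. The median difference was -0.04 over the members and 0.07 over all tested intervals, on the log2(TPM + 1) scale. Without the ribosomal protein members that carry a symbol, 162 of 411 were higher and 149 lower, with a median of 0.00. The 411 still hold the 110 intervals without a symbol, which were given no class and may include genes of this one. Of those 110, 28 were higher and 57 lower, with a median of -0.18. Differences of at least 1.5-fold were fewer among the members: 26 were higher and 22 lower, 5.65% and 4.78% of the members, where 10.5% and 6.45% of all tested intervals were. Scaling by the median of ratios, which shifts the median of all tested intervals by -0.06 between the hairpins, gave 122 higher and 229 lower members in place of 164 and 192.

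**Figure D2:**
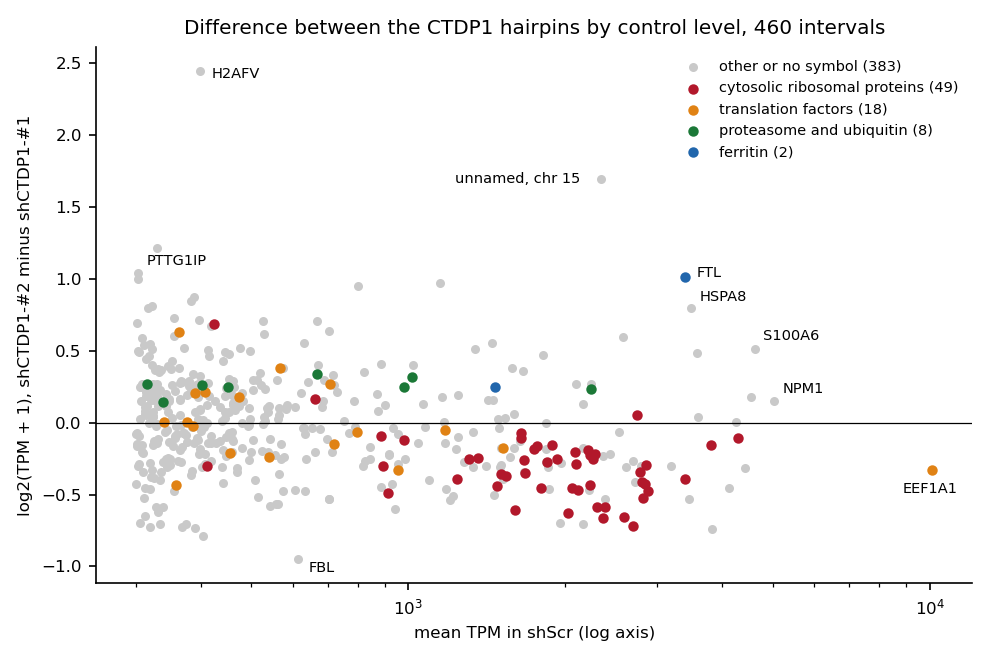
Difference between the CTDP1 hairpins (shCTDP1-#2 minus shCTDP1-#1, log2(TPM + 1)) against the mean TPM in shScr (log axis), 1 point per interval, coloured by class. Most ribosomal protein points lie in the right part of the plot and below 0, while H2AFV and an unnamed interval on chromosome 15 stand highest.

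The ribosomal protein genes were lower with shCTDP1-#2 almost throughout. Among all tested intervals, 20% were lower with shCTDP1-#2 and 30.2% higher. Of the 49 members given a symbol of this class, 43 were lower, 2 higher and 4 not called. The median of the 49 was -0.30, with a range from -0.72 to 0.68. The 2 that were higher are RPL7L1 (0.68, SE 0.03, limma adjusted p = 6.29e-08), a relative of RPL7, and RPL36AL (0.16, SE 0.03, limma adjusted p = 0.00275), a close copy of RPL36A. The summed share of the 49 was 6.90%, 7.50% and 7.32% in shCTDP1-#2 libraries, 9.31%, 9.23% and 8.89% in shCTDP1-#1 libraries, and 9.24%, 10.06% and 10.08% in shScr libraries. The hairpin groups did not overlap, and shCTDP1-#1 overlapped shScr only through shScr replicate 1.

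Among the ribosomal protein members with the highest level in shScr after RPLP0 and RPL8, RPL31 averaged 1879 TPM with shCTDP1-#2, 2465 TPM with shCTDP1-#1 and 3387 TPM with shScr, and its difference between the hairpins was -0.39 (SE 0.04, limma adjusted p = 2.07e-05). RPS2, of the small subunit, had the lowest difference of the class, picked here for its value. It had 1119.9, 1072 and 1099.8 TPM in shCTDP1-#2, 1769, 1819.6 and 1819 TPM in shCTDP1-#1, and 2546, 2792 and 2751 TPM in shScr, with a difference between the hairpins of -0.72 (SE 0.04, limma adjusted p = 2.21e-07). RPS12 had 1145, 1306 and 1257 TPM in shCTDP1-#2, 1429.7, 1412 and 1377 TPM in shCTDP1-#1, and 2042, 2272 and 2321 TPM in shScr. RPL41 had 1380.5, 1569 and 1607 TPM in shCTDP1-#2, 1804, 1755 and 1757 TPM in shCTDP1-#1, and 2154, 2244 and 2281 TPM in shScr. In both, the 3 groups formed steps with no overlap. Ribosomal protein genes have many processed copies in the genome, and reads shared with such copies can be divided among them, so single levels in this class are uncertain.

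The TOP-type starts shown above were common among the ribosomal protein members that were lower with shCTDP1-#2, while members outside that class with such a start were divided. Of 28 ribosomal protein members with such a start, 27 were lower with shCTDP1-#2 and none was higher, with a median of -0.33. Of the 9 without it, 5 were lower and 2 higher, with a median of -0.18. The 2 higher were RPL7L1 and RPL36AL, the relatives of ribosomal protein genes named above, and that median includes them. The 5 lower were RPL9, RPL32, RPL10A, RPL27 and RPL3, with differences from -0.49 to -0.18. Of 42 other members with a TOP-type start, 12 were lower and 16 higher, with a median of 0.00. Of 201 other members without it, 56 were lower and 96 higher, with a median of 0.10. Among all tested intervals, 20% were lower and 30.2% higher. Whether the start itself goes with the difference was not tested. Among the 42, EEF1A1, EEF2 and RACK1 were lower, NPM1 was higher, and HSP90AB1 and NACA were not called.

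The translation factors were divided. Of 18 members, 6 were higher with shCTDP1-#2, 7 lower and 5 not called, where 30.2% of all tested intervals were higher and 20% lower. The median of the class was -0.04. Under upper-quartile and median-of-ratios scaling 5 were higher and 9 lower, with medians of -0.10 and -0.11. The elongation factors EEF1A1, EEF1B2 and EEF2 were lower, while EEF1D was not called. EIF4A1, the helicase that unwinds the mRNA start, averaged 955 ± 10.8 TPM with shCTDP1-#2, 1077 ± 13.4 TPM with shCTDP1-#1 and 1521 ± 26 TPM with shScr (SD, n = 3 each). EIF4G2 and EIF6 were higher with shCTDP1-#2 by 0.27 and 0.38. EIF5, which triggers GTP hydrolysis at the start codon, had the highest difference of this class, 0.63 (SE 0.03, limma adjusted p = 2.31e-07), at 602 to 619 TPM in shCTDP1-#2 libraries and 384 to 403 TPM in shCTDP1-#1 libraries.

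All 8 proteasome and ubiquitin members were higher with shCTDP1-#2 than with shCTDP1-#1, by 0.14 to 0.34, where 30.2% of all tested intervals were higher. The share of all TPM they took was 0.777% ± 0.007 with shCTDP1-#2, 0.650% ± 0.002 with shCTDP1-#1 and 0.641% ± 0.019 with shScr (SD, n = 3 each). UBB, a polyubiquitin gene, had 2718, 2760.0 and 2832 TPM in shCTDP1-#2, 2353, 2367 and 2339.6 TPM in shCTDP1-#1, and 2151, 2248 and 2307 TPM in shScr. Every shCTDP1-#2 library of UBB was above every library of the other groups. PSMD2, a subunit of the regulatory particle, and PSMA7, of the catalytic core, were higher with shCTDP1-#2 than with shCTDP1-#1 by 0.25 and 0.34. Under upper-quartile and median-of-ratios scaling 7 of the 8 were called, all higher.

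The ferritin genes, which code for the subunits of the iron storage shell, differed in size of change. FTL, the light chain, had 8359, 8345 and 8345 TPM in shCTDP1-#2, 4128, 4198 and 4102 TPM in shCTDP1-#1, and 3249.9, 3473 and 3436 TPM in shScr. Its shCTDP1-#2 libraries held about as much again as the shCTDP1-#1 libraries, a difference of 1.01 (SE 0.03, limma adjusted p = 5.89e-09), and no other member exceeded it in the shCTDP1-#2 group. FTH1, the heavy chain, had 1369, 1363 and 1381 TPM in shCTDP1-#2, 1127, 1162 and 1172 TPM in shCTDP1-#1, and 1465, 1454 and 1487 TPM in shScr. It was higher with shCTDP1-#2 than with shCTDP1-#1 by 0.25 (SE 0.03, limma adjusted p = 2.72e-05), and both groups lay below shScr.

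Of 13 chaperones and cyclophilins, 3 were higher with shCTDP1-#2, 7 lower and 3 not called, where 30.2% of all tested intervals were higher and 20% lower. The median of the class was -0.11. Under the median of ratios 2 were higher and 9 lower. The class took symbols that begin with HSP or PDIA, and PPIA, PPIB, CALR and CANX, so it does not hold all folding genes among the members. Outside it, the chaperonin subunits CCT4, CCT5, CCT7 and CCT8 were higher with shCTDP1-#2 by 0.09 to 0.12. The median of ratios shifts the median of all tested intervals by -0.06 between the hairpins, so these small differences may depend on the scaling. CCT3 was not called, and P4HB, a disulfide isomerase, was lower (-0.20). HSPA8, the constitutive cytosolic HSP70, had 2801, 2477 and 2787 TPM in shCTDP1-#2, 1594, 1432 and 1602 TPM in shCTDP1-#1, and 3474, 3385 and 3585 TPM in shScr. It was higher with shCTDP1-#2 than with shCTDP1-#1 by 0.80 (SE 0.06, limma adjusted p = 1.51e-06). The members of the class that act in the endoplasmic reticulum were picked out after their values were seen, and 5 of these 6 were lower with shCTDP1-#2: PPIB, PDIA3, HSP90B1, CALR and HSPA5, but not CANX. HSP90B1, the HSP90 of that compartment, had 949, 905 and 911 TPM in shCTDP1-#2, 1365, 1363 and 1460.5 TPM in shCTDP1-#1, and 959, 914 and 959 TPM in shScr. PDIA3, a disulfide isomerase, had 355, 358 and 369 TPM in shCTDP1-#2, 541, 579.9 and 578 TPM in shCTDP1-#1, and 303, 302 and 334 TPM in shScr. In both genes the shCTDP1-#1 libraries were the high ones, with no overlap with either other group.

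Of 15 cytoskeletal members, 7 were higher with shCTDP1-#2, 3 lower and 5 not called, where 30.2% of all tested intervals were higher and 20% lower. The class was a fixed list of symbols, so it does not hold all cytoskeletal genes among the members. Outside it, CORO1C, STMN1, CNN3, LASP1, WDR1 and DSTN were lower with shCTDP1-#2, by 0.72 for CORO1C to 0.10 for DSTN. CAP1, CAPG and COTL1, also outside it, were higher. VIM had 2139, 2015 and 2053 TPM in shCTDP1-#2, 1422, 1513 and 1506 TPM in shCTDP1-#1, and 3564, 3523 and 3641 TPM in shScr, with a difference between the hairpins of 0.48 (SE 0.03, limma adjusted p = 1.55e-06). TUBA1B, an alpha-tubulin, had means of 1534, 1899 and 2618 TPM in the same order of groups and was lower with shCTDP1-#2 than with shCTDP1-#1 by 0.31 (-0.31, SE 0.04, limma adjusted p = 7.03e-05). Vimentin and alpha-tubulin thus shared a high level in shScr but had the hairpin groups in opposite order. Of 7 S100 proteins and annexins, 4 were higher and 3 lower, where 30.2% and 20% of all tested intervals were. The 4 higher were S100A6, ANXA1, ANXA2 and ANXA5, and the 3 lower were S100A10, S100A11 and S100A16. Both splits moved with the scaling, to 6 higher and 6 lower of the cytoskeletal members and to 3 and 3 of the S100 proteins and annexins under the median of ratios.

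The ATP synthase and respiratory chain members coded in the nucleus showed small differences. Of 21 members, 8 were higher with shCTDP1-#2, 3 lower and 10 not called, where 30.2% of all tested intervals were higher and 20% lower. The median of the class was 0.04. Under the median of ratios 2 were higher and 6 lower, so the direction of this class depends on the scaling. The highest of them in shScr, COX6A1, had 1002, 1091 and 1025 TPM in shCTDP1-#2, 921, 949 and 932 TPM in shCTDP1-#1, and 743, 818 and 794 TPM in shScr. ATP5MC1, a subunit of the ATP synthase ring, had the lowest difference, -0.58 (SE 0.06, limma adjusted p = 3.10e-05). Of 4 glycolytic enzymes with a symbol, LDHA and PGAM1 were higher with shCTDP1-#2, by 0.36 and 0.15, while GAPDH and LDHB were not called; under the median of ratios 1 of the 4 was higher and 1 lower.

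The members with a symbol that were listed as long noncoding RNAs numbered 4, and the intervals without a symbol may include others. SNHG5 and LRRC75A-AS1, which host small nucleolar RNAs, were lower with shCTDP1-#2 than with shCTDP1-#1, with differences of -0.47 and -0.27, and GAS5, another such host, was not called. PHLDA1-AS1 was higher, by 0.85 (SE 0.13, limma adjusted p = 0.000412). It lies within the interval of PHLDA1, and since the libraries do not mark the strand, reads of the pair cannot be told apart. PHLDA1 itself, below the threshold, had 360 to 369 TPM in shCTDP1-#2 libraries, 281 to 289 TPM in shCTDP1-#1 libraries and 227 to 241 TPM in shScr libraries.

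**Figure D3:**
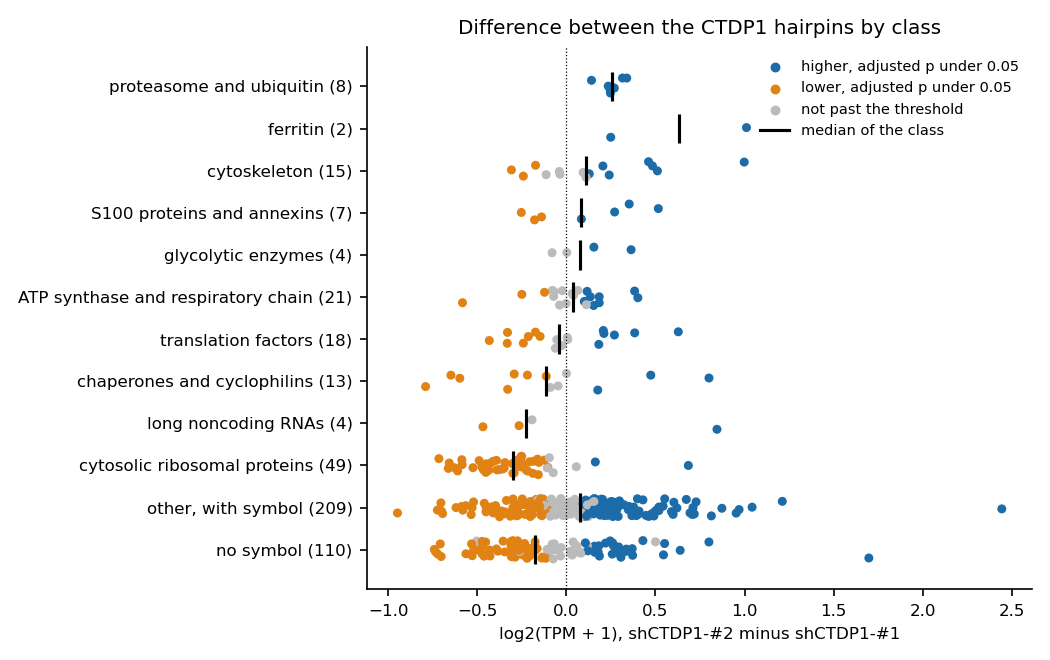
Difference between the CTDP1 hairpins (shCTDP1-#2 minus shCTDP1-#1, log2(TPM + 1)) for the 460 intervals by class, 1 point per interval, with a black bar at the class median. All 8 proteasome and ubiquitin points lie above 0, and 43 of the 49 ribosomal protein points were called lower.

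The largest differences between the hairpins among the members were in genes outside these classes, in FTL, TUBB6 and PPIB within them, and in intervals without a symbol. H2AFV, a histone H2A variant, had 337, 344 and 339 TPM in shCTDP1-#2, 58.3, 62.2 and 64.7 TPM in shCTDP1-#1, and 381, 408 and 404 TPM in shScr. Its low level was seen with shCTDP1-#1 alone: shCTDP1-#2 was 2.44 higher than shCTDP1-#1 (SE 0.04, limma adjusted p = 3.89e-10), and 0.22 below shScr (-0.22, SE 0.04). The interval chr15:45003675-45011075 had 5191, 5721 and 5247 TPM in shCTDP1-#2, 1698, 1702 and 1577 TPM in shCTDP1-#1, and 2184, 2486 and 2345 TPM in shScr. Here the hairpins lay on opposite sides of shScr, and the difference between them was 1.70 (SE 0.05, limma adjusted p = 9.30e-09).

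SAA2, an acute-phase serum amyloid protein, had 225, 254 and 206 TPM in shCTDP1-#2, 108, 92.5 and 93.8 TPM in shCTDP1-#1, and 318, 339 and 332 TPM in shScr, a difference between the hairpins of 1.21 (SE 0.08, limma adjusted p = 8.31e-07). The neighbouring SAA1, a close copy, had 462, 494 and 488 TPM in shCTDP1-#2, 251, 254 and 239 TPM in shCTDP1-#1, and 771, 829 and 802 TPM in shScr, in the same order. Reads of this pair can be divided between the copies, so the level of each is uncertain.

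PTTG1IP, which binds the securin PTTG1, had 735, 738 and 695 TPM in shCTDP1-#2, 350.2, 355 and 346 TPM in shCTDP1-#1, and 285, 313 and 311 TPM in shScr, a difference between the hairpins of 1.04 (SE 0.04, limma adjusted p = 3.83e-08). TUBB6, a beta-tubulin, had 348, 338 and 345 TPM in shCTDP1-#2, 176, 172 and 166 TPM in shCTDP1-#1, and 294, 308 and 309 TPM in shScr, a difference of 1.00 (SE 0.03, limma adjusted p = 1.59e-08). PTTG1IP was above shScr with both hairpins, while TUBB6 was below shScr with shCTDP1-#1 and above it with shCTDP1-#2.

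In the other direction, FBL, the methyltransferase fibrillarin of the nucleolus, had 294, 293 and 281 TPM in shCTDP1-#2, 557, 552 and 567 TPM in shCTDP1-#1, and 608, 613 and 622 TPM in shScr. Its difference between the hairpins, -0.95 (SE 0.03, limma adjusted p = 9.30e-09), was the lowest of the 460. PPIB, a cyclophilin of the endoplasmic reticulum, had 326, 325 and 305 TPM in shCTDP1-#2, 567, 543 and 547 TPM in shCTDP1-#1, and 379, 416 and 415 TPM in shScr, a difference of -0.79 (SE 0.04, limma adjusted p = 3.25e-07). CORO1C, an actin-binding coronin, had 368, 329 and 379 TPM in shCTDP1-#2, 593, 563 and 623 TPM in shCTDP1-#1, and 326, 321 and 311 TPM in shScr, a difference of -0.72 (SE 0.06, limma adjusted p = 2.60e-06). FBL was low with shCTDP1-#2, whereas CORO1C was high with shCTDP1-#1. PPIB lay above shScr with shCTDP1-#1 and below it with shCTDP1-#2.

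The remaining 3 of the lower set carry no symbol. The interval chr14:50043390-50065408, 1 of the 10 highest, had 3071, 3375 and 3383 TPM in shCTDP1-#2, 5716, 5568 and 5149 TPM in shCTDP1-#1, and 3263, 4199 and 4011 TPM in shScr, a difference between the hairpins of -0.74 (SE 0.09, limma adjusted p = 5.48e-05). It overlaps another tested interval, as 182 of the 460 do, and reads in the shared bases can be assigned to either. The interval chr7:20042346-20042909, shorter than 600 bases, had 319, 407 and 348 TPM in shCTDP1-#2, 693, 550.5 and 548 TPM in shCTDP1-#1, and 342, 402 and 423 TPM in shScr, with a difference of -0.73 (SE 0.12, limma adjusted p = 0.000563). The interval chr19:13064972-13068050 had 258, 253 and 275 TPM in shCTDP1-#2, 408, 458 and 436 TPM in shCTDP1-#1, and 361, 369.8 and 373 TPM in shScr, with a difference of -0.72 (SE 0.05, limma adjusted p = 8.29e-07).

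**Figure D4:**
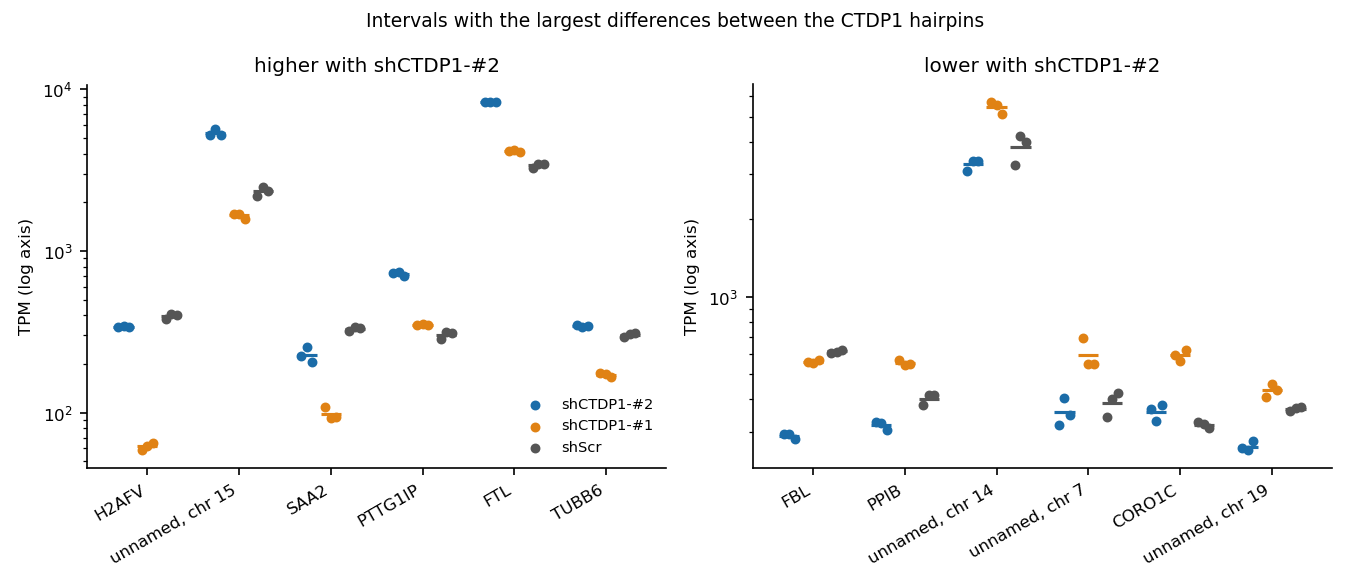
TPM (log axis) in each library for the 6 intervals highest and the 6 lowest with shCTDP1-#2 relative to shCTDP1-#1, with 1 point per library and a bar at the group mean. H2AFV lies at or below 64.7 TPM with shCTDP1-#1 and between 337 and 408 TPM in the other groups, and FTL between 8345 and 8359 TPM with shCTDP1-#2.

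By level in shScr, the intervals at 1000 TPM and over held the most falls between the hairpins. Of these 123, 80 were lower and 26 higher with shCTDP1-#2, with a median of -0.24. Without the ribosomal protein members at that level that carry a symbol, 41 of 81 were lower and 26 higher, with a median of -0.14. Of the 238 intervals at 300 to under 500 TPM, 73 were lower and 104 higher, with a median of 0.05. The intermediate 99 had 39 lower and 34 higher. Over all tested intervals 20% were lower and 30.2% higher. The counts by level were not recomputed under another scaling. The median of ratios shifts the median of all tested intervals by -0.06, so the direction at 300 to under 500 TPM may depend on the scaling.

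By span in the genome, the intervals of 3 to under 10 kb held the largest share of members lower with shCTDP1-#2. Of these 156, 84 were lower and 43 higher with shCTDP1-#2, where 581 of all 2336 tested intervals of that span were lower and 676 higher. Without the ribosomal protein members that carry a symbol, 56 of 126 were lower and 43 higher. The intervals under 3 kb had 21 lower and 17 higher of 55, where 206 of all 1854 tested intervals of that span were lower and 396 higher. Those of 10 to under 30 kb had 52 lower and 64 higher of 145, where 791 of 3845 were lower and 1282 higher. Those of 30 kb and over had 35 lower and 40 higher of 104, where 1425 of 6976 were lower and 2181 higher. Across the 460 intervals, the log2 difference between the hairpins had a Pearson correlation of 0.15 with log2 span, and of -0.01 over all 15011 tested intervals. These are correlations over intervals of the same libraries and are given as a description.

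The shortest member, chr6:74082831-74082986, spans 156 bases. It had 1762, 1021 and 1140.4 TPM in shCTDP1-#2, 1728, 1815 and 1865 TPM in shCTDP1-#1, and 1605, 1398 and 1369 TPM in shScr, and its difference between the hairpins was -0.50 (SE 0.19, limma adjusted p = 0.0562). The shCTDP1-#2 libraries overlapped both other groups. Of the 8 members shorter than 600 bases none carries a symbol, and reads of such short intervals may come from longer genes with the same sequence. The longest member, CTNNA1 (alpha-catenin, which links cadherins to actin), spans 324068 bases and had 386, 381 and 408 TPM in shCTDP1-#2, 338, 339.9 and 374 TPM in shCTDP1-#1, and 323, 325 and 316 TPM in shScr. It was higher with shCTDP1-#2 than with shCTDP1-#1 by 0.16 (SE 0.04, limma adjusted p = 0.0131). The intervals chr15:82664459-82748784 and chr15:83041000-83125316 had the same TPM in every library and count as 2 of the 460, although reads cannot be told apart between such copies.

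Against shScr, counts are given beside those of all tested intervals, and nothing is read from them because shScr chose the members. With shCTDP1-#2, 162 members were higher and 232 lower than shScr (35.2% and 50.4%), where 39.5% and 24.6% of all tested intervals were. With shCTDP1-#1, 166 were higher and 201 lower (36.1% and 43.7%), where 35.4% and 27.7% of all tested intervals were. With both hairpins, 116 members were called higher and 160 lower, 25.2% and 34.8% of the members, where 26.4% and 16.5% of all tested intervals were. Libraries of both hairpins lay clear of shScr in 120 members above it and in 155 below it, 26.1% and 33.7%, where 27.9% and 18.2% of all tested intervals did. Both comparisons share the shScr libraries. The median log2 difference of the members was -0.14 with shCTDP1-#2 and -0.02 with shCTDP1-#1, and it was 0.13 and 0.07 over all tested intervals. When intervals with at least 300 TPM were chosen on the 6 knockdown libraries instead, the medians of those 478 intervals were 0.12 and 0.13, so the sign of the median depends on which libraries choose. With the median of ratios, which shifts the median of all tested intervals by -0.12 between shCTDP1-#2 and shScr, 113 members were higher and 266 lower.

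At the threshold, the 3 members just inside averaged 301.1 TPM (ANTXR2), 300.7 TPM (VCP) and 300.6 TPM (chr19:23945807-24010937) in shScr. ANTXR2 had 834 TPM with shCTDP1-#2 and 516 TPM with shCTDP1-#1, VCP 231 and 244 TPM, and the unnamed interval 181 and 243 TPM. The 3 intervals just outside averaged 298.7, 298.7 and 297.9 TPM in shScr. They were chr16:3068446-3072384, chr6:7881483-8026646 and chr1:150933059-150947479, with 355, 243 and 268 TPM with shCTDP1-#2 and 349, 329 and 389 TPM with shCTDP1-#1.

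The members farthest above shScr with both hairpins included a myosin light chain and a secreted protease inhibitor. MYL12A, a regulatory light chain of non-muscle myosin, had 1563, 1622 and 1611 TPM in shCTDP1-#2, 1386, 1391 and 1382 TPM in shCTDP1-#1, and 371, 376 and 396 TPM in shScr. Its log2 difference from shScr was 2.07 (SE 0.03) with shCTDP1-#2 and 1.86 (SE 0.03) with shCTDP1-#1. CST4, a salivary-type cystatin that inhibits cysteine proteases, had 969, 1015 and 902 TPM in shCTDP1-#2, 906, 872 and 831 TPM in shCTDP1-#1, and 303, 367 and 339 TPM in shScr. CTSB, the lysosomal cysteine protease cathepsin B, had 695, 675 and 644 TPM in shCTDP1-#2, 589, 616 and 601 TPM in shCTDP1-#1, and 311, 339.7 and 322 TPM in shScr. In these genes no knockdown library overlapped shScr, which the choice of the intervals required.

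POLR2L, a subunit shared by the nuclear RNA polymerases, had 559, 579.7 and 604 TPM in shCTDP1-#2, 617, 634 and 649 TPM in shCTDP1-#1, and 305, 355 and 317 TPM in shScr. Its log2 difference from shScr was 0.84 (SE 0.05) with shCTDP1-#2 and 0.96 (SE 0.05) with shCTDP1-#1. POLR2L overlaps another tested interval. The unnamed intervals chr11:33719807-33757991 and chr10:73576055-73611126 averaged 1198 and 994 TPM with shCTDP1-#2, 1129 and 914 TPM with shCTDP1-#1, and 464 and 411 TPM with shScr.

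Those farthest below shScr with both hairpins included an inflammatory chemokine, a lipase inhibitor, a cyclin and a metallothionein. CXCL8, which attracts neutrophils, had 128, 142 and 126 TPM in shCTDP1-#2, 81.4, 83.3 and 74.8 TPM in shCTDP1-#1, and 359, 423 and 406 TPM in shScr. G0S2, which inhibits the triglyceride lipase ATGL, had 220.3, 219 and 215 TPM in shCTDP1-#2, 292, 310.2 and 293 TPM in shCTDP1-#1, and 843, 888 and 930.2 TPM in shScr. CCNB1, the mitotic cyclin B1, had 148, 149 and 142 TPM in shCTDP1-#2, 121, 126 and 119 TPM in shCTDP1-#1, and 399, 382 and 395 TPM in shScr. All 3 genes kept both hairpin groups far from shScr, and G0S2 was the only one of them that was lower with shCTDP1-#2 than with shCTDP1-#1 (-0.45, SE 0.04, limma adjusted p = 9.17e-06).

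HNRNPA1, which binds nascent RNA and takes part in splicing, had 447, 425 and 417 TPM in shCTDP1-#2, 541, 531 and 514 TPM in shCTDP1-#1, and 1423, 1389 and 1423 TPM in shScr. MT2A, a metallothionein that binds zinc and copper, had 616, 563 and 619.7 TPM in shCTDP1-#2, 451, 478 and 453 TPM in shCTDP1-#1, and 1536, 1540.0 and 1654 TPM in shScr. The log2 differences from shScr were -1.71 and -1.42 for HNRNPA1, and -1.39 and -1.77 for MT2A, with shCTDP1-#2 and shCTDP1-#1 in that order. HNRNPA1 was lower and MT2A higher with shCTDP1-#2 than with shCTDP1-#1. PHLDA1-AS1, described above, averaged 114 TPM with shCTDP1-#2, 62.5 TPM with shCTDP1-#1 and 384 TPM with shScr.

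**Figure D5:**
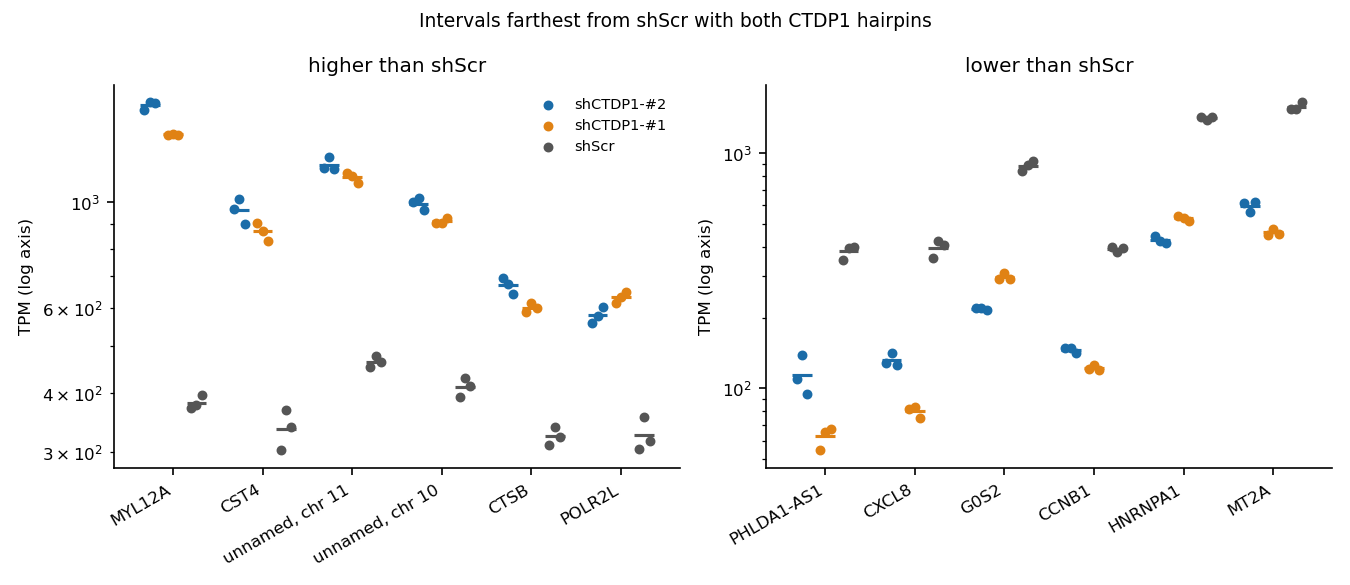
TPM (log axis) in each library for the 6 members farthest above and the 6 farthest below shScr with both hairpins, with 1 point per library and a bar at the group mean. MYL12A lies between 1382 and 1622 TPM with the hairpins and at or below 396 TPM in shScr, and CXCL8 at or below 142 TPM with the hairpins and at or above 359 TPM in shScr. The non-overlap with shScr was part of the choice.

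CXCL1, a chemokine of the same family as CXCL8, was looked up because of it. It had 166, 173 and 140.0 TPM in shCTDP1-#2, 182, 181 and 173 TPM in shCTDP1-#1, and 372, 371 and 359.5 TPM in shScr, and the difference between the hairpins did not pass the test (-0.17, SE 0.07, limma adjusted p = 0.0619). The 120 bases before the RefSeq start of each gene are shown, on the gene's plus strand with GRCh38.p14 positions, with matches to GGNNTTTCC, a form of the site known for binding NF-kappaB, in capitals.
CXCL8, chr4:73740449-73740568: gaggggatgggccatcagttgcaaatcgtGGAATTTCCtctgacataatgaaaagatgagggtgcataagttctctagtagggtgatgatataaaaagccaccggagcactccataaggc
CXCL1, chr4:73869273-73869392: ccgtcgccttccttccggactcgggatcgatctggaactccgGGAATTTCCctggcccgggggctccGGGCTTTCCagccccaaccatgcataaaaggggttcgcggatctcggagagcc
GGNNTTTCC on either strand of the 250 bases before a start was found for 25 of the 280 members with a window, 8.93%, against 6.69% of all genes with a window. Of those 25 members, 12 were higher and 8 lower with shCTDP1-#2 than with shCTDP1-#1. The 255 members without the letters had 102 higher and 92 lower, where 30.2% and 20% of all tested intervals were.

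In 42 members the hairpins were called against shScr in opposite directions, 9.13% of the members, where 5.43% of all tested intervals were. shCTDP1-#2 was the group above shScr in 17 of them and shCTDP1-#1 in the other 25. They included chr15:45003675-45011075 and TUBB6, with shCTDP1-#2 above shScr, and PPIB and chr10:79793518-79816570, with shCTDP1-#1 above shScr. Ribosomal protein genes among the 25 included RPS10, RPL27A, RPL32, RPL12, RPS16, RPL29, RPS27A and RPL37. RPS10, of the small subunit and the fourth of its class by level in shScr, averaged 2286 TPM with shCTDP1-#2, 3175 TPM with shCTDP1-#1 and 2875 TPM with shScr.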

How the data were processed

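RNA of 9 libraries was read as deposited. The tools were STAR and RSEM on hg19, per the submitters' processing notes, and their versions are not given in the sources used here. Each file as the authors deposited it holds a TPM value for each interval, with 2 decimals, so depth is unknown and no counting error is given. Rows sharing an interval (2246 of 57773) were left out.

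log2(TPM + 1) was fitted in R 4.3.3 with limma 3.58.1 (trend, robust, statmod 1.5.0) over all 9 libraries, for the 15011 intervals that reached 1 TPM in 3 or more libraries, with Benjamini-Hochberg adjustment over all of them. The fit was tested on simulated data.

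A symbol was given where the gene's hg19 position is generally known and GENCODE release 29 or the RefSeq GRCh38.p14 gene table lists that gene on the same chromosome with an identical span; no coordinate was converted. Start windows are RefSeq's. Members, classes and tests were chosen with earlier results of these data known.

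The intervals printed were the 10 highest in shScr, the 6 highest and 6 lowest between the hairpins among called intervals without overlap, the 6 farthest above and below shScr with both hairpins, 3 on each side of the threshold, the shortest and the longest, and examples per class. EEF2, RPS12, RPL41, RPS2, RPL7L1, RPL36AL, EIF5, EIF6, EIF4G2, HSP90B1, PDIA3, ATP5MC1, CXCL1 and SAA1 were added after their values were seen. Alternatives were other pseudocounts, filters and scalings, other choices of members, a replicate block and leaving out each library. Single values of some members are not reported here.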

Additional observations from a re-analysis of the deposited data

Results flagged for a closer look

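The difference between the hairpins was itself tested with limma across all tested intervals, with shCTDP1-#2 over shCTDP1-#1. By that test 164 members were higher and 192 lower, 35.7% and 41.7% of the members, where 30.2% and 20% of all tested intervals were. By the separate comparisons with shScr, the hairpins were called on opposite sides of it in 42 members, 9.13%, where 5.43% of all tested intervals were. The difference between the hairpins follows from that choice in those 42. These counts were picked out because hairpins against the same gene differed. The largest log2(TPM + 1) differences, each with no overlap between 3 and 3 libraries, were 2.44 for H2AFV, 1.70 for chr15:45003675-45011075, 1.21 for SAA2, 1.04 for PTTG1IP, 1.01 for FTL and 1.00 for TUBB6. In the other direction they were -0.95 for FBL, -0.79 for PPIB, -0.74 for chr14:50043390-50065408, -0.73 for chr7:20042346-20042909, -0.72 for CORO1C and -0.72 for chr19:13064972-13068050. Why the hairpins differed was not tested.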

How the results depend on the processing

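Of the values recomputed under another choice, 5 medians changed sign and 34 values moved by more than their limit. The other 214 stayed within it, which for a median or share is 1 SD between libraries and for a percent of members called is 1.5 times. For shCTDP1-#2 against shCTDP1-#1 the median of the members, -0.039, became 0.004 with a threshold of 200 TPM, -0.156 with 500 TPM, -0.103 with upper-quartile and -0.111 with median-of-ratios scaling, and lay between -0.043 and -0.031 without each library in turn. For shCTDP1-#2 against shScr the median, -0.137, became -0.063 at 200 TPM, -0.218 at 500 TPM, -0.21 and -0.271 with those scalings, and -0.175 over members that overlap no other tested interval. For shCTDP1-#1 against shScr the median, -0.021, became -0.04 at 500 TPM and -0.083 with the median of ratios. Chosen on the 6 knockdown libraries, the medians against shScr were 0.118 with shCTDP1-#2 and 0.133 with shCTDP1-#1, and the balance of calls turned over. With shCTDP1-#2 50.4% were then higher and 35.8% lower than shScr, and with shCTDP1-#1 51.5% were higher and 29.1% lower. Chosen on all 9 libraries, they were 0.036 and 0.084. The sign of a comparison with shScr therefore changes with the libraries that choose. Without each library in turn, the medians lay between -0.154 and -0.111 with shCTDP1-#2 and between -0.048 and -0.007 with shCTDP1-#1.

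The summed share in shCTDP1-#2, shCTDP1-#1 and shScr, in that order, was 45.58%, 47.07% and 49.24% at 200 TPM, 28.75%, 30.91% and 33.46% at 500 TPM, 22.92%, 23.57% and 25.13% over members without overlap, and 43.01%, 45.14% and 47.79% rescaled to chromosomes 1 to 22. It was 39.95%, 41.71% and 41.8% when chosen on the 6 knockdown libraries, and 39.44%, 41.32% and 42.09% when chosen on all 9. The difference between the hairpins, -1.78 points, was -0.65 without overlap. Without each library in turn it lay between -2.09 and -1.51, and the shares between 37.97% and 38.79%, 39.78% and 40.61%, and 41.77% and 43.59%. Calls moved with 1 library left out to between 33% and 36.7% of members higher and 39.3% and 43.0% lower with shCTDP1-#2 than with shCTDP1-#1. The cause of each shift was not tested. With a replicate block, 35.4% were higher and 42.6% lower; same-numbered libraries correlated by -0.007 to 0.053 in their deviations from the group means, under the 0.1 taken as pairing, although for 8 of 9 libraries the best match carried the same number. Depth is unknown.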
